A study of Mus musculus with 6 samples.

Results

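The miRNAs described here are 10 mature miRNAs of microglia and other leukocytes, taken by name from a table of 1522 miRNA rows. They were chosen by their known cell types. mmu-miR-150-5p stands for lymphoid cells, mmu-miR-223-3p and mmu-miR-223-5p for myeloid cells, and mmu-miR-142a-3p and mmu-miR-142a-5p for leukocytes in general. mmu-miR-155-5p and mmu-miR-146a-5p are induced in activated immune cells, and mmu-miR-342-3p, mmu-miR-342-5p and mmu-miR-21a-5p are shared with cells outside the blood. The prefix mmu-, for mouse, is left out below. Small RNA had been sequenced from neural stem cells (NSC) of the hippocampus, taken from male C57BL/6J pups 3 days after birth. In the 3 libraries titled IUGR, the design text's GDE group, the dams had been injected intraperitoneally with dexamethasone (DEX), a synthetic glucocorticoid, at 1 mg/kg each day from E14.5 to E18.5. In the 3 libraries titled Normal, the Ctrl group, the dams had received saline on the same days. The design text states 3 independent litters. As the isolation step that text names a dissociation kit, and no sorting marker.

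A mature miRNA guides an Argonaute protein to messenger RNAs, mainly by pairing of its seed, bases 2 to 8 from the 5′ end. Microglia are the macrophages that reside in the brain, and they carry miRNAs that cells of the blood also make, so none of these 10 marks microglia alone. Blood that remains in a tissue brings the miRNAs of lymphocytes, neutrophils and red cells with it.

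The mature sequences of 9 members were found in RefSeq's table for GRCm38.p6, the assembly also called mm10, and are shown because the seed defines the targets that a member could share with others. The seed is in capitals and the rest in lower case, 5′ to 3′.
miR-223-3p: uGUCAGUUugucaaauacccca
miR-223-5p: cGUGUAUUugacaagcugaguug
miR-142a-3p: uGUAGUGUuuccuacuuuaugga
miR-142a-5p: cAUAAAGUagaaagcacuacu
miR-155-5p: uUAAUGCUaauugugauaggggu
miR-146a-5p: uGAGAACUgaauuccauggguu
miR-342-3p: uCUCACACagaaaucgcacccgu
miR-342-5p: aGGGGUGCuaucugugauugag
miR-21a-5p: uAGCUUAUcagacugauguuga

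The 9 sequences have 9 different seeds, so no member shares its seed with another. Of the 1738 mature sequences in that table, none shared a seed with 7 of the members. The seed of miR-146a-5p is also that of miR-146b-5p, and the seed of miR-21a-5p is also that of miR-21c, which was not analysed here. miR-146b-5p is shown because it is the closest relative with a level in these libraries.
miR-146b-5p: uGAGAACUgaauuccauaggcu
Counted from the 5′ end, it differs from miR-146a-5p by G18A and U21C only, 2 of 22 bases, so how reads of this pair were split depends on the authors' counting, and the levels of both are uncertain to that extent.

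The precursors lie on chromosomes 7, X, 11, 16 and 12 (GRCm38, GENCODE M21), with 3 of them on chromosome 11. Mir150 is at chromosome 7, 45121757 to 45121821 on the plus strand, and overlaps no other annotated gene. Mir223 is at chromosome X, 96242817 to 96242926 on the plus strand, within an exon of the noncoding gene F630028O10Rik. Mir142 is at chromosome 11, 87756864 to 87756927 on the plus strand, in an intron of its noncoding host Mir142hg. Mir155 is at chromosome 16, 84714140 to 84714204 on the plus strand, in an exon of Mir155hg, also known as Bic. Mir146 is at chromosome 11, 43374397 to 43374461 on the minus strand, and overlaps no other annotated gene. Mir342 is at chromosome 12, 108658620 to 108658718 on the plus strand, in an intron of the protein-coding gene Evl. Mir21a is at chromosome 11, 86584067 to 86584158 on the minus strand, where an exon of Vmp1 is also annotated.

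Levels are in RPM, read counts scaled to the depth of the whole library, and since mature miRNAs are all of nearly the same length, RPM needs no division by length. Each library rested on 11751322 to 12384958 tags (reads), of which 24.1% to 27.8% were in the miRNA table, and whole tags could be recovered from the values. A count of 0 tags allows up to 3 tags, 0.242 to 0.255 RPM. Limits of this kind, and the intervals below, cover counting error only. miR-9-5p, a marker of neural progenitors, was at 8389 ± 209 RPM in IUGR and 8427 ± 357 RPM in Normal (mean ± SD, n = 3 each, as throughout). The level of this miRNA alone does not show which cells the libraries hold, and their make-up was not tested. On the first principal component of the tested miRNAs, with 37.38% of the variance, the groups lay apart. The IUGR replicates were at -4.157, -5.49 and -8.92 and the Normal replicates at 11.97, 5.441 and 1.155. Normal replicate 1 was the library farthest from the centre on this component, and IUGR replicate 3 was so on the second. The log2 folds and ratios that moved most without Normal replicate 1 are therefore also given without it.

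The members spanned a wide range of levels. miR-21a-5p had the highest mean over the 6 libraries, 4437 ± 487 RPM, rank 20 of the table, followed by miR-146a-5p at 1758 ± 272 RPM, rank 40. The 5 members from the third to the seventh place were miR-150-5p (213 ± 107 RPM), miR-342-3p (202 ± 17.1), miR-155-5p (99.4 ± 13.4), miR-223-3p (54.1 ± 31.3) and miR-342-5p (34.3 ± 3.44). miR-142a-3p (8.85 ± 5.97 RPM), miR-142a-5p (4.06 ± 2.35) and miR-223-5p (0.332 ± 0.360) came last. The ranges over the libraries overlapped between miR-150-5p and miR-342-3p, miR-155-5p and miR-223-3p, miR-223-3p and miR-342-5p, and in the last 3, and were apart at the other steps of this order. The members most confined to leukocytes thus held lower places than miR-21a-5p and miR-146a-5p, which many other cells also make. They were not below all the shared members. By mean level, miR-150-5p stood above the shared miR-342-3p and miR-223-3p above the shared miR-342-5p, both with overlapping ranges.

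**Figure D1:**
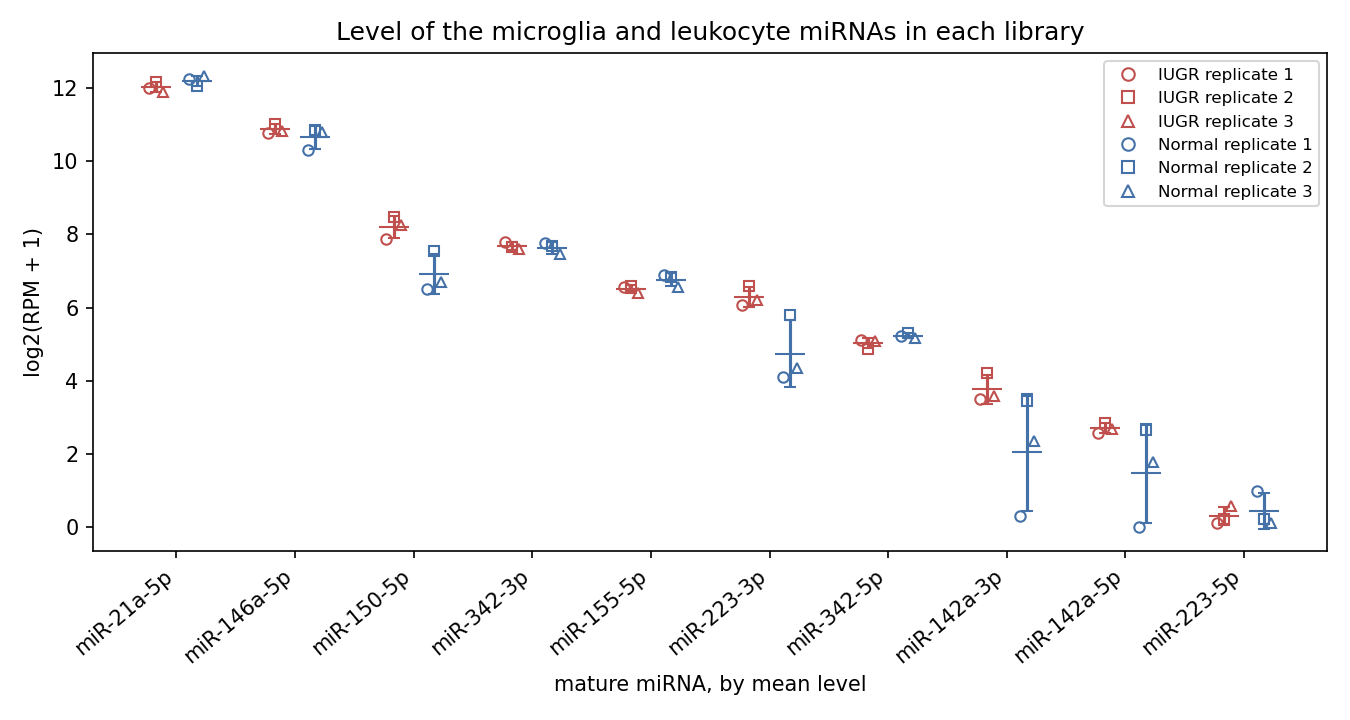
Level of each of the 10 miRNAs on the log2(RPM + 1) scale in the 6 libraries, in order of mean level; symbols are replicates, and horizontal dashes with bars are the group mean ± SD (n = 3). In miR-150-5p, miR-223-3p and the arms of miR-142a the Normal replicates are spread out, with Normal replicate 2 nearest to the IUGR libraries.

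Between the groups, the lymphoid, myeloid and common leukocyte miRNAs had the largest log2 folds, toward higher levels in IUGR, while the induced and shared members had small ones in both directions. None of the 9 tested members passed the threshold (limma, adjusted p under 0.05 over 649 miRNAs), where 0.308% of all tested miRNAs passed. Without adjustment 3 of the 9 had p under 0.05, against 8.63% of all tested miRNAs. On the recovered tags edgeR called 0 of the 9, and DESeq2 called 1, against 1.08% of all tested miRNAs. The groups did not overlap for 4 of the 9 members, against 14.6% of all tested miRNAs. These were 3 members higher in IUGR, against 4.62% of all tested miRNAs, and 1 member lower in IUGR, against 10%. The median log2 fold of the 9 was 0.23, against -0.07 over all tested miRNAs. Of the 9 folds 6 were positive and 3 negative, and 38.8% of all tested miRNAs had a positive fold. As miR-223-5p did not reach 1 RPM in any library, it failed the filter and was not tested. These are bulk samples, in which fewer cells of a type and less RNA per cell cannot be told apart.

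**Figure D2:**
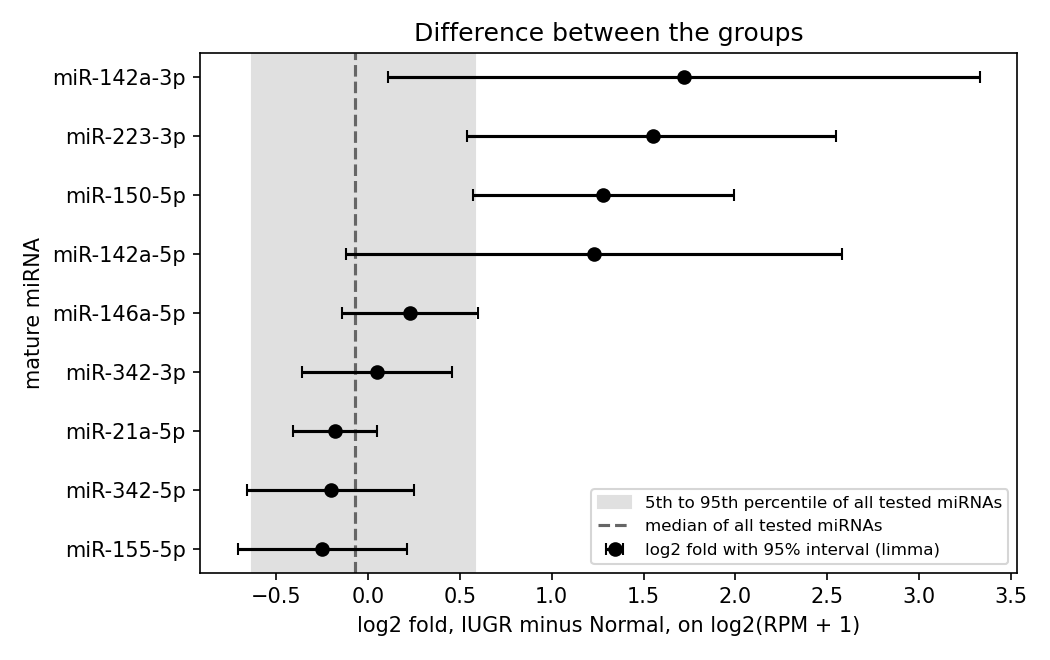
Log2 fold of IUGR minus Normal on the log2(RPM + 1) scale for the 9 tested miRNAs, with 95% intervals from limma; the grey band runs from the 5th to the 95th percentile of all 649 tested miRNAs (-0.63 to 0.58) and the dashed line is their median (-0.07). The arms of miR-142a, miR-223-3p and miR-150-5p lie to the right of the band, and the other 5 lie inside it.

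miR-150-5p is abundant in mature B, T and natural killer cells, where it restrains the transcription factor Myb. It was at 233, 358 and 304 RPM in IUGR replicates 1, 2 and 3 and at 90.3, 187 and 103 RPM in the Normal replicates. Every IUGR library lay above every Normal library, and Normal replicate 2 was the highest of its group. The means were 298 ± 62.5 RPM in IUGR and 127 ± 52.4 RPM in Normal, a ratio of 2.35. The log2 fold was 1.28 (SE 0.31, 95% interval 0.57 to 1.99; limma, adjusted p = 0.510, 0.0366 to 0.759 over 16 alternatives). The lowest of these came from DESeq2 on the recovered tags, with a log2 fold of 1.31. Without Normal replicate 1 the log2 fold in limma was 1.08. The exact permutation p was 0.1, the smallest that 3 against 3 libraries can give.

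miR-223-3p is the main product of its precursor in neutrophils and monocytes, where it limits granulocyte production and activation. It was at 66.7, 96.0 and 72.3 RPM in the IUGR replicates and at 16.1, 54.3 and 19.4 RPM in the Normal replicates. The groups did not overlap, and Normal replicate 2 stood at 3.37 times the level of Normal replicate 1. The log2 fold was 1.55 (SE 0.43, 95% interval 0.54 to 2.55; limma, adjusted p = 0.551, 0.0329 to 0.816 over 16 alternatives; exact permutation p = 0.1). Without Normal replicate 2 the ratio of the group means went from 2.62 to 4.41 and the log2 fold to 2.07, and the test passed (limma, adjusted p = 0.0329). Without Normal replicate 1 the ratio was 2.12 and the log2 fold 1.22.

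miR-142a-3p and miR-142a-5p come from a precursor that nearly all cells of the haematopoietic (blood-forming) lineage express, microglia among them. miR-142a-3p was at 10.4, 17.4 and 11.0 RPM in the IUGR replicates and at 0.249, 10.0 and 4.09 RPM in the Normal replicates. The groups were separated by a narrow gap only, since IUGR replicate 1 and Normal replicate 2 held 124 tags each and differed by the library total alone. In Normal replicate 1 just 3 tags were counted, with a 95% Poisson interval of 0.619 to 8.77 tags, against 48 tags (35.4 to 63.6) in Normal replicate 3. The log2 fold was 1.72 (SE 0.70, 95% interval 0.11 to 3.33; limma, adjusted p = 0.561, 0.244 to 0.822 over 16 alternatives; exact permutation p = 0.1). It depended on the Normal library left out: the log2 fold was 0.86 without Normal replicate 1 and 2.43 without Normal replicate 2, and the ratio of the means went from 2.70 to 1.83 and 5.96.

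miR-142a-5p was at 5.01, 6.18 and 5.44 RPM in the IUGR replicates, and at 5.25 and 2.47 RPM in Normal replicates 2 and 3. In Normal replicate 1 it was listed at 0 tags, which allows up to 0.249 RPM. Normal replicate 2 lay within the IUGR range, so the groups overlapped. The log2 fold was 1.23 (SE 0.58, 95% interval -0.12 to 2.58; limma, adjusted p = 0.567), and 0.49 without Normal replicate 1 and 1.81 without Normal replicate 2. The size of the fold also depended on the pseudocount and the tool. For miR-142a-5p it was 2.34 with a pseudocount of 0.1, 0.33 with 10 and 3.01 in limma-voom on the recovered tags, and for miR-142a-3p it was 2.37, 0.67 and 2.65. Of the 649 tested miRNAs, 4 had a level in Normal replicate 1 under 10% of the lowest level elsewhere, and the arms of miR-142a were 2 of these 4. miR-142b, which the opposite strand of the same locus encodes, is shown because it is exactly the first 20 bases of the reverse complement of miR-142a-3p. It reached no more than 2 tags in any library.
miR-142b: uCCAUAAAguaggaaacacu

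The lymphoid, myeloid and common leukocyte members were then set side by side within each library. The log2 ratio of miR-223-3p over miR-150-5p, the myeloid over the lymphoid member, was -1.79, -1.89 and -2.06 in the IUGR replicates and -2.42, -1.76 and -2.35 in the Normal replicates. Its mean was higher in IUGR by 0.27, with overlapping groups (exact two-sided permutation p = 0.4, adjusted p = 1.0 over 3 ratios). It was 0.15 without Normal replicate 1, 0.47 without Normal replicate 2 and 0.04 with a pseudocount of 10. The log2 ratio of miR-142a-3p over miR-150-5p was -4.37, -4.28 and -4.67 in IUGR and -6.19, -4.09 and -4.36 in Normal, so that Normal replicate 1 stood apart. The difference of the means was 0.44 (exact permutation p = 0.9, adjusted p = 1.0), and without Normal replicate 1 it was -0.22. For miR-223-3p over miR-142a-3p the values were 2.58, 2.40 and 2.62 in IUGR and 3.78, 2.33 and 2.00 in Normal, a difference of -0.17 (exact permutation p = 1.0, adjusted p = 1.0), or 0.36 without Normal replicate 1. The groups thus overlapped in each of the 3 ratios. With 3 libraries a group the permutation p cannot be smaller than 0.1, even before adjustment over the 3 ratios. This test could therefore not pass the threshold whatever the values, and it cannot decide whether lymphoid and myeloid members shifted against each other.

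miR-451a, a miRNA of red cells, had a like pattern over the libraries. It was at 63.4, 74.1 and 58.4 RPM in the IUGR replicates and at 29.9, 52.8 and 20.8 RPM in the Normal replicates, again without overlap and with Normal replicate 2 the highest of its group (log2 fold 1.00, SE 0.34; limma, adjusted p = 0.551). Among 313 other named miRNAs with a mean of at least 10 RPM, it had the pattern most like that of miR-150-5p, miR-223-3p and miR-142a-3p, each time ahead of all others. Likeness was the SD over the 6 libraries of the log2 ratio to the member, smaller being more alike. All 6 libraries enter together, so a like difference between the groups also lowers this SD. This SD was 0.32 for miR-451a against miR-150-5p, whose own log2 SD was 0.81, 0.44 against miR-223-3p (own 1.04), and 0.99 against miR-142a-3p (own 1.40). The next for miR-150-5p were miR-126a-5p (0.61), an endothelial miRNA, and miR-187-3p (0.62), and for miR-223-3p they were miR-187-3p (0.83) and miR-126a-5p (0.84). For miR-142a-3p they were miR-187-3p and miR-204-5p, a choroid plexus miRNA (1.02 each), so the lead of miR-451a was narrow there.

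Ratios to miR-451a are given for miR-150-5p, miR-223-3p and miR-142a-3p. As miR-451a was itself higher in IUGR and like these miRNAs in pattern, smaller group differences than in RPM follow from that choice. The ratio of miR-150-5p to miR-451a was 4.57 ± 0.793 in IUGR and 3.84 ± 1.01 in Normal, with overlapping groups. The ratio of miR-223-3p to miR-451a was 1.20 ± 0.127 in IUGR and 0.834 ± 0.260 in Normal, with Normal replicate 1 at 0.539. Here the groups were separated by a narrow gap only, between IUGR replicate 1 at 1.05 and Normal replicate 2 at 1.03. These values rest on 799 over 759 tags and on 673 over 654 tags. For miR-142a-3p the ratio to miR-451a was 0.163 to 0.235 in the IUGR libraries, 0.190 and 0.197 in Normal replicates 2 and 3, and 0.00832 in Normal replicate 1. These ratios were looked at after the values were seen and carry no test, and the part of blood in the result was not tested.

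**Figure D3:**
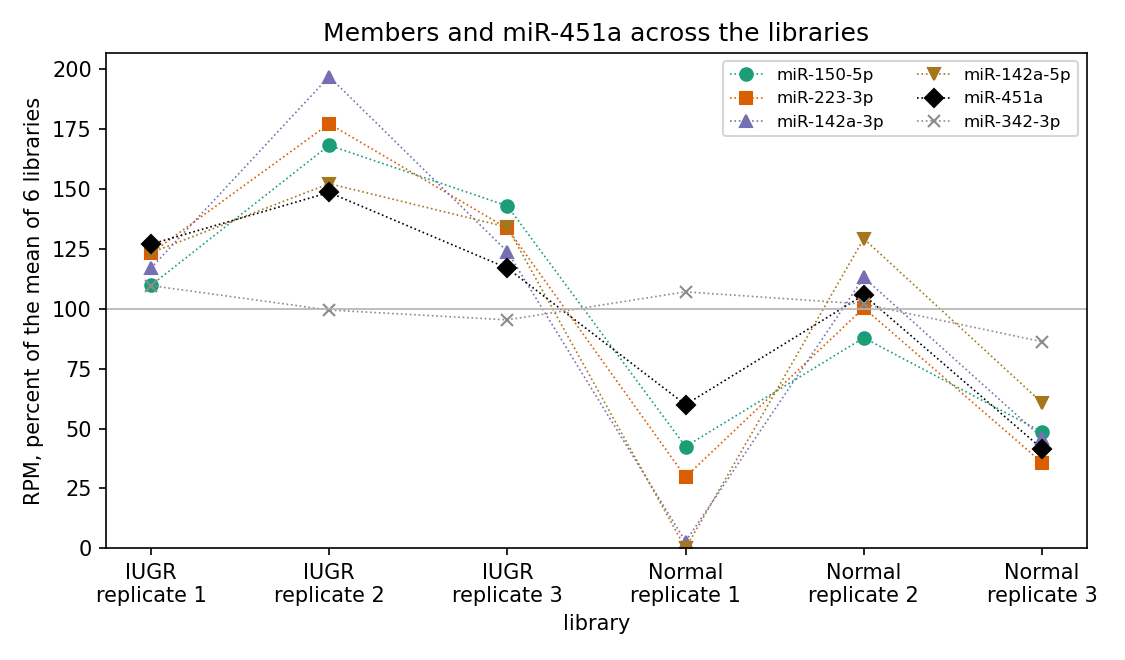
RPM of 5 members and of the red cell miRNA miR-451a in each library, as a percent of the mean over the 6 libraries; the dotted lines only join the points of a miRNA and imply no order of the libraries. miR-150-5p, miR-223-3p, miR-142a-3p, miR-142a-5p and miR-451a are low in Normal replicates 1 and 3 and at 87.9% to 129.3% in Normal replicate 2, while miR-342-3p stays between 86.3% and 109.7%.

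Markers of the other cells were compared as lists. The summed level of the 4 erythroid miRNAs ran from 73.9 to 93.6 RPM in IUGR and from 35.0 to 69.1 RPM in Normal. Within that list miR-486a-5p was at 15.6 ± 2.01 RPM in IUGR and 15.0 ± 1.14 RPM in Normal, and miR-144-5p had at most 1 tag per library. The 6 endothelial and mural miRNAs, of vessel walls, summed to 383 to 606 RPM in IUGR and 354 to 434 RPM in Normal, with 6 of 6 log2 folds positive and 2 higher in IUGR without overlap. Over all tested miRNAs 38.8% had a positive fold and 4.62% were higher without overlap. The 2 most abundant were miR-126a-3p at 334 ± 103 against 272 ± 54.9 RPM and miR-143-3p at 73.7 ± 13.7 against 70.6 ± 9.91 RPM. The choroid plexus pair, miR-204-5p (682 ± 295 against 333 ± 182 RPM) and miR-448-3p (5.25 ± 4.54 against 1.00 ± 0.789 RPM), summed to 386 to 984 RPM in IUGR and 155 to 521 RPM in Normal. The 3 neuronal miRNAs summed to 1112.5 to 1232 RPM in IUGR and 1073 to 1414 RPM in Normal. The most abundant of them, miR-128-3p, stood at 594 ± 57.5 and 659.9 ± 116 RPM, and the next, miR-138-5p, at 334 ± 33.3 against 308 ± 29.3 RPM. The 3 neural progenitor miRNAs, the arms of miR-9 and miR-92b-3p, summed to 18017 to 19228 RPM in IUGR and 18014 to 19884 RPM in Normal. miR-122-5p, the main liver miRNA, reached at most 17.9 RPM, and of the 3 muscle miRNAs only miR-206-3p exceeded 1 RPM, at 26.7 ± 10.1 against 40.3 ± 15.0 RPM. None of the members of these 7 lists passed the threshold (limma, over 649 miRNAs), where 0.308% of all tested miRNAs passed. The part of their cells in the differences above was not tested.

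The 2 members induced in activated immune cells went in opposite directions, and neither passed the test. miR-155-5p rises in macrophages and lymphocytes on activation. It was at 93.7, 95.1 and 83.0 RPM in the IUGR replicates and at 118, 113 and 93.4 RPM in the Normal replicates. The groups overlapped, because Normal replicate 3 lay within the IUGR range (log2 fold -0.25, SE 0.20, 95% interval -0.71 to 0.21; limma, adjusted p = 0.719). In Normal replicate 1, the library with 3 tags of miR-142a-3p, miR-155-5p had its highest level, 1420 tags.

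miR-146a-5p is switched on by the transcription factor NF-κB and dampens the same pathway through the signalling proteins Traf6 and Irak1. It was at 1757, 2088 and 1823 RPM in the IUGR replicates and at 1258, 1833 and 1792 RPM in the Normal replicates. Normal replicate 1 was the lowest of the 6 libraries, and the other Normal libraries lay within the IUGR range (log2 fold 0.23, SE 0.16, 95% interval -0.14 to 0.60; limma, adjusted p = 0.660). Without Normal replicate 1 the log2 fold was 0.06. miR-146b-5p, with the same seed, was at 296 ± 83.9 RPM in IUGR and 340 ± 29.2 RPM in Normal (log2 fold -0.23, SE 0.22; limma, adjusted p = 0.773), with its highest and its lowest level both in IUGR libraries.

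Of 13 related leukocyte miRNAs, among them the other arms of the members, 8 had a row and 3 were tested. Of the 3, 0 passed (limma), against 0.308% of all tested miRNAs. The 3 log2 folds were negative, with a median of -0.23 and the smallest, that of miR-147-3p, at -0.01. Over all tested miRNAs 38.8% had a positive fold, so negative folds were the more common. The most abundant after miR-146b-5p were miR-21a-3p at 19.5 ± 7.60 RPM in IUGR and 29.5 ± 16.8 RPM in Normal, and miR-147-3p, a miRNA of activated macrophages, at 1.87 ± 0.197 and 1.89 ± 0.303 RPM. The other 5, which include miR-146a-3p, miR-155-3p and miR-511-3p, a macrophage miRNA, had at most 3 tags in any library. The partner arms of miR-146a-5p and miR-155-5p were thus at or under the limit of detection in every library.

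The members shared with cells outside the blood had small log2 folds, and none passed the test. miR-342-3p, made from the Evl intron in leukocytes and in brain, was at 221, 201 and 193 RPM in the IUGR replicates and at 216, 206 and 174 RPM in the Normal replicates, with overlapping groups (log2 fold 0.05, SE 0.18, 95% interval -0.36 to 0.46; limma, adjusted p = 0.984). The sign of this fold turned without IUGR replicate 1 or without Normal replicate 3. Its partner miR-342-5p was at 34.0, 28.4 and 33.2 RPM in IUGR and at 36.7, 38.3 and 35.2 RPM in Normal. All 3 IUGR libraries were lower, by a small margin (log2 fold -0.20, SE 0.20, 95% interval -0.66 to 0.25; limma, adjusted p = 0.784; exact permutation p = 0.1).

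miR-21a-5p is made in many dividing and injured tissues, and in activated microglia and astrocytes. It was at 4091, 4581 and 3793 RPM in the IUGR replicates and at 4822, 4234 and 5099.6 RPM in the Normal replicates, with Normal replicate 2 within the IUGR range. The log2 fold was -0.18 (SE 0.10, 95% interval -0.41 to 0.05; limma, adjusted p = 0.570). Its within-group log2 SD of 0.14 was close to the median of 0.19 for the 34 miRNAs between 1000 and 5000 RPM, and above the median of 0.05 for the 18 miRNAs over 5000 RPM.

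The arms of a precursor are cut from the 2 sides of a hairpin, and a change in their balance would be seen apart from a change in the amount of the precursor. The hairpins of Mir142 and Mir223 are shown with the 5p arm and then the 3p arm in capitals (RefSeq, GRCm38.p6), because they differ most in arm balance.
Mir142: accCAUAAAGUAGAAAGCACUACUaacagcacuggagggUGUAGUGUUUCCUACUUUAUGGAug
Mir223: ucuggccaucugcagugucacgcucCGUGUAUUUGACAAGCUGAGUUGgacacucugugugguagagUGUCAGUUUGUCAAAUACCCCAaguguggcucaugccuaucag

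Of miR-142a, the 5p arm held 32.6%, 26.2% and 33.2% of the tags of both arms in the IUGR replicates and 34.4% and 37.7% in Normal replicates 2 and 3. The exact 95% binomial intervals of these 5 shares overlapped, while Normal replicate 1 had 3 tags in all and gives no usable share (0 to 70.8%). The log2 ratio of the arms differed by -0.49 (SE 0.24; limma, adjusted p = 0.674 over 155 precursors). In Normal replicate 1 the pseudocount sets this ratio, and the difference was -0.37 without that library and -0.03 with a pseudocount of 0.1. Of miR-342, the 5p arm held 13.3%, 12.4% and 14.7% in IUGR and 14.53%, 15.7% and 16.8% in Normal, so the groups overlapped narrowly (log2 ratio lower by -0.25, SE 0.19; limma, adjusted p = 0.761). None of the 155 precursors with both arms tested passed the threshold for a change in arm balance (limma, 0% called, 9 with an unadjusted p under 0.05). As miR-223-5p failed the filter, miR-223 was not among them.

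The 5p arm of miR-223 was close to the limit of detection. It had 1, 2 and 6 tags in the IUGR replicates and 12, 2 and 1 tags in the Normal replicates, or 0.083 to 0.997 RPM. Its share of both arms was 0.125%, 0.176% and 0.680% in IUGR, and 0.296% and 0.437% in Normal replicates 2 and 3. In Normal replicate 1 the share was 5.83% (exact 95% interval 3.05% to 9.95%), above the upper bounds of the other libraries, which were 2.41% or less. Normal replicate 1 thus held the most tags of the 5p arm and, with 194 tags, the fewest of the 3p arm. This library was singled out after its values were seen.

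**Figure D4:**
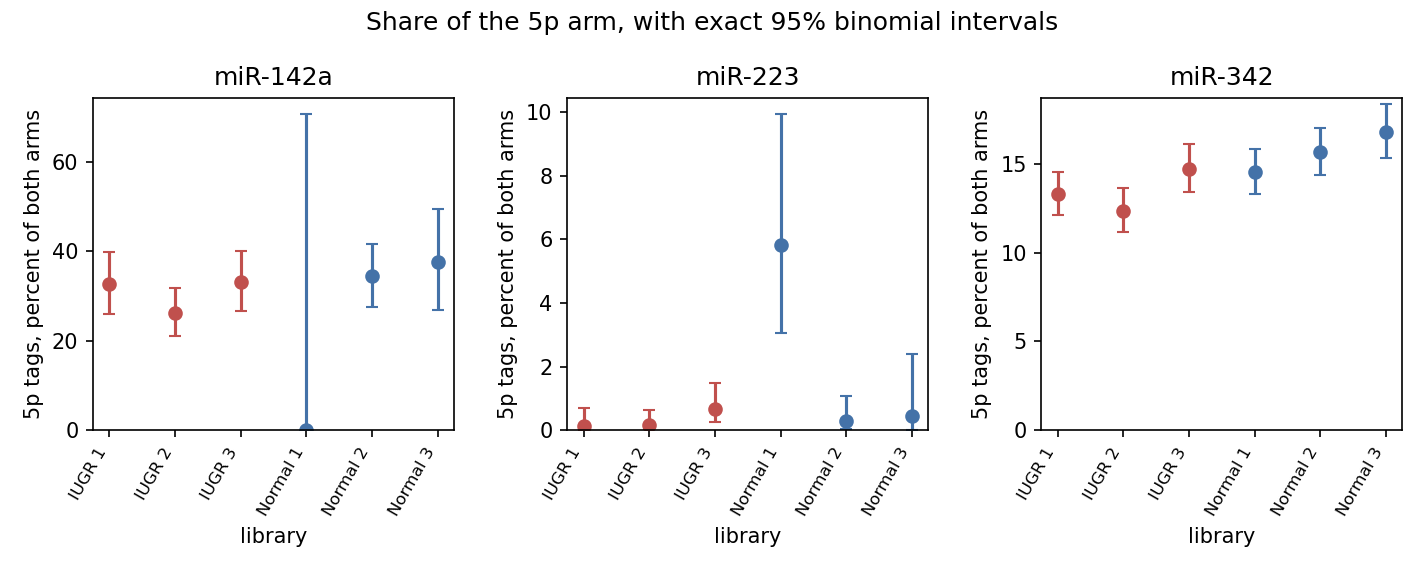
Share of the 5p arm in the tags of both arms for miR-142a, miR-223 and miR-342 in each library (red IUGR, blue Normal), in percent from 0, with exact 95% binomial intervals that cover counting error only; each panel has its own scale. The share of miR-223-5p is 5.83% in Normal replicate 1 and at most 0.680% elsewhere.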

How the data were processed

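Small RNA was measured in 6 libraries, 3 IUGR and 3 Normal by their titles, and 1 table was analysed. The submitters' processing notes name Bowtie2 and mm10. How adapters were trimmed, and how reads that fit more than 1 miRNA or carry molecular identifiers were handled, is not given in the sources used here. Values deposited by the authors were read as RPM: in each library they were whole multiples of 1 step (100% of nonzero values within 0.1 tags), which also gives the depth and the recovered tags.

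The test was limma 3.58.1 (R 4.3.3) with a trend, on log2(RPM + 1) without further scaling, over 649 rows with at least 1 RPM in 3 or more libraries, two-sided, at a Benjamini-Hochberg threshold of 0.05. The pseudocount makes the folds of low miRNAs smaller. limma called 2 of the 649. On the recovered tags edgeR 4.0.16 called 2 and DESeq2 1.42.0 called 7. Scripts were tested on simulated data. Alternatives covered scaling, pseudocount, filter, tool, a replicate block and each library left out. Between replicates the chi-square per degree of freedom was 50.1 to 186, well above sampling noise. The members and lists were chosen with earlier results of these data known. All members are named; of every other list the 2 or 3 most abundant are named, and for 3 members the 3 miRNAs most alike in pattern; miRNAs outside this rule were named after their values were seen. Single values were tested by exact permutation with scipy 1.17.1 (Python 3.11.15).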

Additional observations from a re-analysis of the deposited data

How the results depend on the processing

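Of 143 values of the 9 tested members under the alternatives, 139 kept the direction and the side of the threshold. No member was called in limma with all libraries; 1 was called by DESeq2 (miR-150-5p, log2 fold 1.31) and 1 without Normal replicate 2 (miR-223-3p, log2 fold 2.07), so over the libraries left out the number was 0 to 1. miR-342-3p turned to -0.01 without IUGR replicate 1 and to -0.04 without Normal replicate 3 (range over the libraries left out -0.04 to 0.11). Over all miRNAs 2 were called, against 1 with at least 10 RPM in 3 libraries, 7 with DESeq2 and 1 with limma-voom. That filter tested fewer miRNAs. The cause of the other changes was not tested. The log2 difference of miR-142a-3p over miR-150-5p was 0.44, -0.54 with a pseudocount of 10, and -0.22 to 0.83 over the libraries left out. That of miR-223-3p over miR-142a-3p was -0.17, 0.58 with a pseudocount of 10, and -0.52 to 0.36 over the libraries left out. The level of miR-142a-3p was between 0.249 and 17.4 RPM. Same-numbered libraries showed no shared deviation (correlations -0.03, -0.12 and -0.03), which cannot tell whether they were paired in the design. With a replicate block 2 miRNAs and 0 members were called. miR-142a-3p in Normal replicate 1, and miR-223-5p throughout, rest on few tags, so counting error limits how exactly these values are known.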
